A study of Homo sapiens with 2 samples.

Results

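The genes described here are cell adhesion genes: integrins, laminins, cadherins, adhesion molecules of the immunoglobulin type, neuropilins, syndecans, glypicans and the adaptor proteins of focal adhesions. Of 48 listed genes, 47 had a probe that the platform annotation names, and CDH4 was not analysed here. A gene was kept when a probe of it had a detection p-value, which sets the probe's signal against the negative controls of its own array, under 0.01 on at least 1 array. This left 26 genes out of 10189 detected in the whole series, and 21 listed genes were not well above background on either array, their 34 probes having raw signals between 105.8 and 155.9.

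The expression arrays compared radiation-adapted SK-ES1 cells with wild type SK-ES1 cells, and each group held 1 array. SK-ES1 is an established Ewing sarcoma line, a bone and soft tissue tumour driven by a fusion of EWSR1 with an ETS factor gene. The label of the radiation-adapted line carries a dose of 4 Gy, and the labels do not say how or how often it was given, how long the cells then grew, or whether the line came from 1 clone. The comparison asks how the adapted line differed from the line it came from. With 1 array per group no difference has a replicate check, no test was made, and the line, the culture and the array cannot be told apart. In RNA of a whole culture, fewer cells of a type and less RNA per cell cannot be told apart either.

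The median raw signal was 139.3 on the radiation-adapted array and 137 on the wild type array, and 9593 genes were detected on the radiation-adapted and 9740 on the wild type array. ACTB and GAPDH, used as references, had log2 ratios of -0.07 and -0.09. All 7 measured Ewing sarcoma markers (CD99, NKX2-2, STEAP1, CCND1, PRKCB, GLI1 and CCK) were detected on both arrays, with log2 ratios between -0.68 for NKX2-2 and 0.53 for STEAP1. Of the epithelial markers 1 of 6 was detected (EPCAM), of the endothelial markers 1 of 5 (EMCN, log2 ratio -0.01), and of the skeletal muscle markers 1 of 4 (TNNT1, -0.16). Of 7 fibroblast markers 4 were detected, with DCN at -0.59, PDGFRB at 0.29, THY1 at 0.75 and COL1A2 at 1.10, though a second detected probe of COL1A2 was at -0.06. Leukocyte markers were detected for 2 genes (ITGB2, 0.22, with a second detected probe at -0.08, and CORO1A, found on the wild type array alone). Neural markers were detected for 4 of 5 genes, with STMN2 at 1.27, NCAM1 at 0.68, CHGA found on the wild type array alone and TUBB3 at -0.43.

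Integrins are receptors made of an alpha and a beta chain that hold cells to the extracellular matrix. Laminins, trimers of an alpha, a beta and a gamma chain, are among their ligands in basement membranes, and talin, vinculin, paxillin and focal adhesion kinase link the occupied receptor to actin and to signalling. Cadherins and immunoglobulin-type molecules hold cells to each other, and Ewing sarcoma cells are known for sparse epithelial junctions and for some neural adhesion molecules.

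In the radiation-adapted cells, the integrin chain gene ITGB5 was 2.15-fold higher than in wild type cells. The laminin chain genes LAMC1 and LAMA5 were 1.92-fold and 1.5-fold higher. The laminin chain gene LAMB2 was detected in radiation-adapted cells alone and was at least 1.31-fold higher there. The focal adhesion gene VCL was 1.51-fold higher and PXN 1.55-fold higher. The neural adhesion gene NCAM1 was 1.61-fold higher. Without background correction, the log2 ratios were 0.56 for VCL, 0.45 for LAMA5, 0.32 for LAMB2, 0.32 for NCAM1 and 0.28 for PXN, all under 1.5-fold. The alpha chains of integrins, ITGB1, LAMB1, the kinase gene PTK2 and the syndecan SDC4 all had ratios under 1.5-fold in either direction.

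As a whole the 26 genes were spread around 0. The log2 ratio, radiation-adapted minus wild type throughout, had a median of 0.02 over the 26 genes, beside -0.04 over all detected genes. With the bound in place of the measured ratio for 1-array genes, these medians were 0.02 and -0.02. It was above 0 for 13 genes and below 0 for 13, with 46.6% of all detected genes above 0. At least 2-fold higher by measured ratio were 2 of the 26, ITGB5 and LAMB2, beside 4.02% of all detected genes, and 0 of the 26 were at least 2-fold lower, beside 2.07%. At the bounds 1 gene was past 2-fold on the higher side, beside 2.93% of all detected genes, and 0 on the lower side, beside 1.37%. At 1.5-fold, 9 genes were higher (12.5% of all genes) and 0 were lower (9.59% of all genes). The 9 include L1CAM by its brighter probe, although its probes disagreed, as described further on. The 0 on the lower side likewise rests on the brightest probe, as a dimmer probe of LIMS1 was 2.02-fold lower. The count at 1.5-fold depended on the processing: without background correction it was 2 (ITGB5 and LAMC1, beside 4.72% of all genes), and with an offset of 50 it was 3 (ITGB5, LAMB2 and LAMC1, beside 8.28%). The whole arrays held 410 genes past 2-fold on the higher side and 211 on the lower, and without background correction these counts were 108 and 28.

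By their brightest probe, LAMB2, NRCAM, L1CAM and SDC2 passed the detection rule on the radiation-adapted array alone and ITGA7 on the wild type array alone. Of these, LAMB2, NRCAM and L1CAM are in the count of genes higher at 1.5-fold. With no detection filter, 2 of 47 listed genes were at least 2-fold higher. Over the 21 genes detected on both arrays, 9 were above 0 and 12 below, with a median of -0.01. Among all genes of the series detected on both arrays, 46.9% were above 0 and the median was -0.03. Of these 21, 1 gene (ITGB5) was at least 2-fold higher, beside 2.77% of genes detected on both arrays, and 6 were at least 1.5-fold higher, beside 10.3%. The 6 were ITGB5, LAMC1, NCAM1, PXN, VCL and LAMA5. On the lower side there were 0 at 2-fold, beside 1.37%, and 0 at 1.5-fold, beside 7.32%. These counts take the brightest probe of each gene. A dimmer probe of LIMS1, also detected on both arrays, was 2.02-fold lower, and the median of its detected probes was at -0.63.

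**Figure D1:**
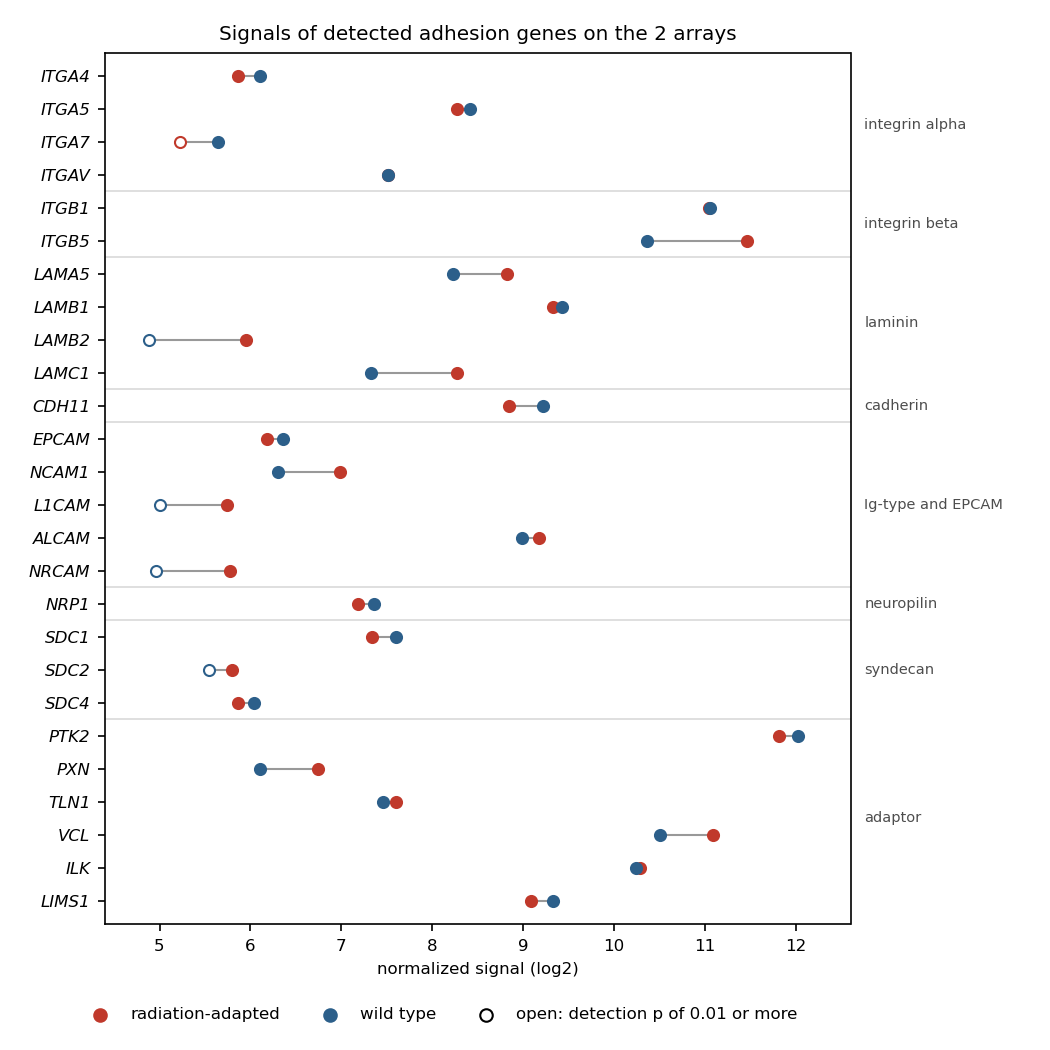
Normalized log2 signals of the 26 detected adhesion genes, 1 gene per line and grouped by family. Red points are the radiation-adapted array, blue points the wild type array, and open points signals with a detection p-value of 0.01 or more; points of ITGAV and ITGB1 lie on top of each other. The widest gaps to the right are those of ITGB5, LAMB2 and LAMC1. Signals of different probes are not on a common scale, so positions are compared within a line only.

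Among integrin beta chains, ITGB5 pairs with ITGAV in a receptor for vitronectin. ITGB5 had a normalized log2 signal of 11.46 in radiation-adapted cells, against 10.36 in wild type cells, from raw signals of 2999.5 in radiation-adapted and 1411.3 in wild type cells. The other 2 detected probes gave the same picture: 11.33 in radiation-adapted and 10.10 in wild type cells for one, 9.06 in radiation-adapted and 7.80 in wild type cells for the other. The log2 ratios of the 3 probes were 1.10, 1.23 and 1.26, that is 2.15-fold, 2.34-fold and 2.39-fold higher. They differed from each other by less than is usual for probes of a gene, whose log2 ratios differed with an SD of 0.466 over 2567 genes. The gene ranked 311 from the highest of 10189 detected genes. Among the fifth of genes with the highest mean signal, to which ITGB5 belongs, 2.52% were at least 2-fold higher and the SD of the log2 ratios was 0.384.

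The partner chain ITGAV did not share that difference. ITGAV, an alpha chain of several receptors for the RGD sequence, had a log2 signal of 7.51 in radiation-adapted and 7.51 in wild type cells. ITGB1, the beta chain with the most partners, had 11.04 in radiation-adapted and 11.05 in wild type cells, and its second detected probe had a log2 ratio of -0.04. For ITGAV and ITGB1 the sign of the ratio turned under median scaling, to 0.03 and 0.01. The 3 other detected alpha chains were all on the lower side. ITGA5, which with ITGB1 forms the classical fibronectin receptor, had 8.27 in radiation-adapted and 8.42 in wild type cells. ITGA4, which with ITGB1 binds VCAM1 and fibronectin, had 5.86 in radiation-adapted and 6.10 in wild type cells. These differences of -0.15 and -0.24 were small beside the SD of ratios between probes. ITGA7, a laminin receptor chain of muscle, had 5.23 in radiation-adapted and 5.64 in wild type cells and was well above background in wild type cells alone, with a signal under that of the dimmest detected probe on the radiation-adapted array, so no fold is given.

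Of the 16 listed integrin chains, 10 were not well above background: ITGA1, ITGA2, ITGA3, ITGA6, ITGA8, ITGA9, ITGA10, ITGB3, ITGB4 and ITGB8. Among them are the chains ITGA3, ITGA6 and ITGB4, which form the main laminin receptors of epithelia. Of 11 further genes listed with the integrins, 5 were detected. None reached 2-fold, beside 4.02% of all detected genes higher and 2.07% lower. The integrin-binding protein gene ITGB1BP1 was at 0.44, the leukocyte chain ITGB2 at 0.22, ITGAE at 0.07 and ITGB7 at -0.59. A second detected probe of ITGB2 was at -0.08. ITGA11, a collagen receptor chain, was found in wild type cells alone and was at least 1.28-fold lower in radiation-adapted cells.

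Laminin chains gave a split picture. LAMC1, the gamma chain of most laminins, had a log2 signal of 8.27 in radiation-adapted and 7.33 in wild type cells, which was 1.92-fold higher. LAMA5, an alpha chain of many adult basement membranes, had 8.82 in radiation-adapted and 8.23 in wild type cells, 1.5-fold higher. LAMB2, a beta chain of nerve, muscle and kidney basement membranes, had 5.95 in radiation-adapted and 4.88 in wild type cells. Its wild type signal was not well above background, so the measured 2.10-fold becomes at least 1.31-fold higher, and the measured log2 ratio was 0.32 without background correction. LAMB1, the other widespread beta chain, had 9.33 in radiation-adapted and 9.43 in wild type cells, and its 2 detected probes gave log2 ratios of -0.10 and -0.05. LAMA5, LAMB2 and LAMC1 are the 3 chains of a known laminin trimer, and LAMB1 can take the place of LAMB2 in it.

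LAMA1 and LAMA4 were not well above background. Of 6 other laminin chain genes 1 was detected, LAMB3, a chain of epithelial laminin, which was found in radiation-adapted cells alone and was at least 1.75-fold higher there. Other matrix ligands, 15 in number, were detected for 5 genes, 4 of them above 0 and none at 2-fold. TNC, a matrix glycoprotein, was at 0.93, though its second detected probe was at -0.22. The basement membrane collagen chains COL4A2 and COL4A1 were at 0.61 and 0.01, the proteoglycan AGRN at 0.31, and COL18A1 at -0.20.

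The ratios of neighbouring genes on the chromosome were set beside those of the adhesion genes. For each of the 26 genes the median log2 ratio of the nearest genes detected on both arrays, 25 on each side (49 in all for L1CAM), was taken. It was highest around LAMC1 on chromosome 1, at 0.34, with 35 of 50 neighbours above 0 and 1 at least 2-fold higher. Around ITGB5 on chromosome 3 it was 0.23, with 40 of 50 neighbours above 0 and 5 at least 2-fold higher. Over the other 25 genes beside LAMC1, it ran from -0.23 to 0.23, with 0.05 around LAMB2 and 0.00 around LAMA5. Around LAMA5, too, 5 of 50 neighbours were at least 2-fold higher. Of all genes detected on both arrays, 46.9% were above 0 and 2.77% at least 2-fold higher. The part of these neighbourhoods in the ratios of LAMC1 and ITGB5 was not tested.

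The promoters of ITGB5 and of the 4 detected laminin chains are shown because ITGB5, LAMB2 and LAMC1 had the 3 highest measured ratios of the 26 genes by the brightest probe of each, and LAMA5 and LAMB1 complete the detected laminin chains. Each is the 250 bases before a RefSeq transcription start in GRCh38.p14, with matches to the searched motifs in capitals on either strand. RefSeq lists 3 starts for ITGB5, and the arrays do not show which of them was used, so starts 1 and 3 are given. The ITGB5 window of start 1 (chr3:124901419-124901668, minus strand) held 2 matches and that of start 3 (chr3:124887366-124887615, minus strand) held 3. The windows of LAMA5 (chr20:62367313-62367562, minus strand), LAMB1 (chr7:108003162-108003411, minus strand), LAMB2 (chr3:49133051-49133300, minus strand) and LAMC1 (chr1:183023170-183023419, plus strand) held 5, 4, 2 and 3.
ITGB5, start 1: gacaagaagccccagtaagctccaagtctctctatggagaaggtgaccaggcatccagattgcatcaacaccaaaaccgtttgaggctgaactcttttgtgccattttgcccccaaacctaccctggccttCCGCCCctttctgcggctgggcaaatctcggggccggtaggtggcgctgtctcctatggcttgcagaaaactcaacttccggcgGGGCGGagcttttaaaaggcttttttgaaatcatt
ITGB5, start 3: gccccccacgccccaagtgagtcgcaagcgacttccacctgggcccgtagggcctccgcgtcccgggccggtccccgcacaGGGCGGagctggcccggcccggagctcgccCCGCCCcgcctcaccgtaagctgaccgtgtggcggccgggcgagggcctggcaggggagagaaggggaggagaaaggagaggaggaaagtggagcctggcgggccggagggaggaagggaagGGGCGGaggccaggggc
LAMA5: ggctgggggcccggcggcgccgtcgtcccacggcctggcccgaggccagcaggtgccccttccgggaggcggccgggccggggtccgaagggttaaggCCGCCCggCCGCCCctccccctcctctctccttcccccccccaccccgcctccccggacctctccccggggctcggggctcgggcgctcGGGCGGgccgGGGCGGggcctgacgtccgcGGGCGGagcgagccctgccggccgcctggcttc
LAMB1: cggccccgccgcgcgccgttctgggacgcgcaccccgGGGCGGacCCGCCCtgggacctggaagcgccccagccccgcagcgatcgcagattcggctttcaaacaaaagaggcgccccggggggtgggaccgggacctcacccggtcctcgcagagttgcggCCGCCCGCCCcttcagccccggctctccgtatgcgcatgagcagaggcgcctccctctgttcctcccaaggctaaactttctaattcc
LAMB2: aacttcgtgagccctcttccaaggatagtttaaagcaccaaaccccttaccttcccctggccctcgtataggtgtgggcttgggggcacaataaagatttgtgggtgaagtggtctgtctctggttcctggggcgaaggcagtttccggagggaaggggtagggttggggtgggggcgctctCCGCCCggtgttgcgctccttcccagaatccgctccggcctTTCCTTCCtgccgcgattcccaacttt
LAMC1: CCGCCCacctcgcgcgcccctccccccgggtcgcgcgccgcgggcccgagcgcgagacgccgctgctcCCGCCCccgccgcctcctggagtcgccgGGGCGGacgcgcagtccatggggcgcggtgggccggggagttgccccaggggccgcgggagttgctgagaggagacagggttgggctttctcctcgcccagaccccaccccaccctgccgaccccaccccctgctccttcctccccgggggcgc

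All matches shown were to the GC box GGGCGG, bound by SP and KLF factors, except 1 match in LAMB2 to GGAAGGAA, a short repeat of the ETS core. Matches of the GC box can overlap, as in LAMB1. The promoter table held 19 of the 26 genes. At the first listed start the GC box was found in 17 of the 19, beside 68.0% of 8241 detected genes, and the repeated ETS core in 1 of 19, beside 2.83%. The AP-1 site TGAGTCA, the EGR1 site GCGTGGGCG, the TATA box TATAAA and the SRF CArG box were found in 0 of the 19, beside 2.28%, 1.24%, 5.21% and 0.971% of detected genes. LAMB1 and the higher chains alike held the GC box. A match describes letters in the window and is not a binding site.

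**Figure D2:**
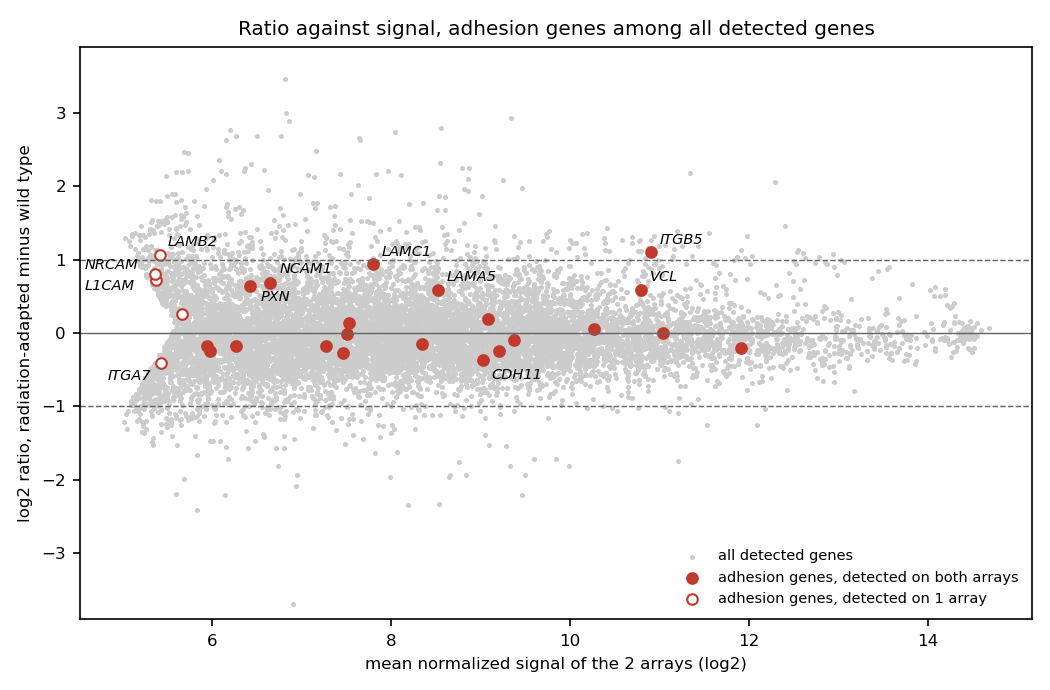
Log2 ratio, radiation-adapted minus wild type, against the mean normalized log2 signal of both arrays. Grey points are all 10189 detected genes, filled red points the 21 adhesion genes detected on both arrays, open red points the 5 detected on 1 array, and dashed lines mark 2-fold. ITGB5 and LAMB2 lie above the upper line, and no adhesion gene lies below the lower one; the lowest measured ratio is that of ITGA7, detected on the wild type array alone.

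Molecules that hold cells to each other were higher or lower by small amounts, and the ones with the largest ratios were dim. NCAM1, a neural adhesion molecule, had a log2 signal of 6.99 in radiation-adapted and 6.30 in wild type cells, 1.61-fold higher, on the 1 of its 4 probes that was detected. NRCAM, which clusters channels on axons, was well above background in radiation-adapted cells alone. Its probes had 5.77 and 5.99 in radiation-adapted cells, against 4.96 and 4.68 in wild type cells, with measured log2 ratios of 0.81 and 1.31 and bounds of at least 1.16-fold and at least 1.35-fold higher. Both NRCAM probes passed the detection rule only on the array where they were brighter, so their lying on the same side is not an independent repeat. Taking the median of the detected probes in place of the brighter probe moved NRCAM past 2-fold, at a log2 ratio of 1.06.

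The 2 probes of L1CAM, a neural molecule related to NRCAM, disagreed. The brighter one had 5.74 in radiation-adapted and 5.01 in wild type cells and was detected in radiation-adapted cells alone, at least 1.14-fold higher. The other had 4.90 in radiation-adapted and 5.58 in wild type cells and was detected in wild type cells alone, with a signal under that of the dimmest probe detected on the radiation-adapted array, so no fold is given for it. Both probes lay near the detection limit, and the annotation assigns them to different transcripts. Why they disagreed was not tested, and the direction for the gene is uncertain. ALCAM, an adhesion molecule of activated leukocytes and of mesenchymal cells, had 9.17 in radiation-adapted and 8.99 in wild type cells, a log2 ratio of 0.19. EPCAM, an epithelial adhesion molecule, had 6.18 in radiation-adapted and 6.36 in wild type cells, a log2 ratio of -0.18, and its second detected probe was at -0.38. MCAM and BCAM were not well above background.

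CDH11, a cadherin of mesenchymal and bone-forming cells, was the 1 detected cadherin. It had a log2 signal of 8.84 in radiation-adapted and 9.22 in wild type cells, 1.30-fold lower in radiation-adapted cells, the lowest ratio among the 21 genes detected on both arrays. CDH1, the epithelial cadherin, and CDH2, the neural cadherin, were not well above background. CDH2 lay just outside the detection rule, with raw signals of 155.9 in radiation-adapted and 137.4 in wild type cells and a lowest detection p-value of 0.0182. ITGA8 and GPC1, at 0.0195 and 0.0169, were also just outside, while L1CAM and ITGA7, both at 0.00649, and SDC2, at 0.00519, were just inside.

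Of 18 further cadherin and catenin genes 9 were detected. At 2-fold 0 were higher (4.02% of all detected genes) and 1 lower (2.07% of all detected genes). This was the protocadherin PCDH18, with 6.09 in radiation-adapted and 7.15 in wild type cells, 2.08-fold lower, and its second probe was at -0.79. CDH10, found in wild type cells alone, was at least 1.83-fold lower in radiation-adapted cells, and CDH3, found in radiation-adapted cells alone, was at least 1.42-fold higher. Of 17 further immunoglobulin-type and related molecules 10 were detected, 8 above 0 (46.6% of all detected genes). At 2-fold 0 were higher (4.02% of all detected genes) and 1 lower (2.07%). The lower gene was VCAM1, a ligand of integrins with the ITGA4 chain, with 6.87 in radiation-adapted and 8.03 in wild type cells, 2.23-fold lower, and its second probe was at -0.39.

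**Figure D3:**
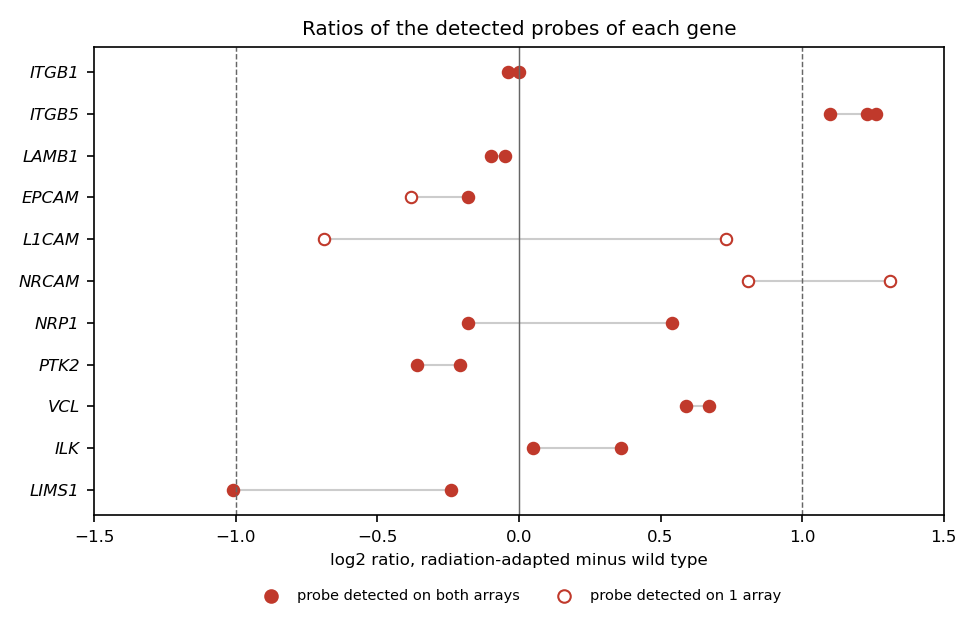
Log2 ratios of each detected probe for the 11 adhesion genes with more than 1 detected probe; each point is a probe, filled where it was detected on both arrays and open where on 1, and dashed lines mark 2-fold. The 3 probes of ITGB5 lie together to the right of 1, while the probes of L1CAM and of NRP1 fall on both sides of 0.

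Neuropilins and cell surface proteoglycans act as co-receptors for growth factors and guidance cues. NRP1, a co-receptor for VEGF and class 3 semaphorins, was the 1 detected neuropilin, and its probes disagreed. The brighter probe had 7.18 in radiation-adapted and 7.36 in wild type cells, a log2 ratio of -0.18, and the other had 6.32 in radiation-adapted and 5.78 in wild type cells, a log2 ratio of 0.54. The annotation ties them to different transcripts. Why they disagreed was not tested, and the direction for the gene is uncertain. NRP2 was not well above background on any of its 4 probes.

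Of the 4 syndecans, heparan sulfate proteoglycans that span the membrane, 3 were detected. SDC1 had a log2 signal of 7.34 in radiation-adapted and 7.60 in wild type cells, a log2 ratio of -0.27. SDC4, the syndecan of focal adhesions, had 5.86 in radiation-adapted and 6.04 in wild type cells, -0.18. SDC2 had 5.80 in radiation-adapted and 5.54 in wild type cells, where its detection p-value of 0.0104 was just over the threshold, which gave at least 1.18-fold higher. SDC3 and the glypicans GPC1, GPC3 and GPC4 were not well above background. Of 3 further glypicans 2 were detected, GPC2 at 0.24 and GPC6 at -0.35.

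All 6 adaptor genes of focal adhesions were detected on both arrays, 4 above 0 and 2 below. VCL, vinculin, which binds talin and actin under tension, had a log2 signal of 11.09 in radiation-adapted and 10.50 in wild type cells. A second VCL probe had 6.94 in radiation-adapted and 6.27 in wild type cells, so that both probes gave a similar ratio, 1.51-fold and 1.59-fold higher. PXN, the scaffold protein paxillin, had 6.74 in radiation-adapted and 6.11 in wild type cells, 1.55-fold higher on its 1 probe. TLN1, talin, which activates integrins, had 7.60 in radiation-adapted and 7.46 in wild type cells, 1.11-fold higher.

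PTK2, focal adhesion kinase, was on the lower side with both probes. It had 11.81 in radiation-adapted and 12.02 in wild type cells, with log2 ratios of -0.21 and -0.36. ILK and LIMS1 encode proteins that bind each other beneath integrins. ILK had 10.29 in radiation-adapted and 10.24 in wild type cells, and its probes gave 0.05 and 0.36. LIMS1 had 9.09 in radiation-adapted and 9.33 in wild type cells, a log2 ratio of -0.24, while a dimmer probe gave 5.84 in radiation-adapted and 6.86 in wild type cells, 2.02-fold lower. Genes closely similar to LIMS1 exist, so the share of each copy in these signals is uncertain.

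Of 22 further focal adhesion and adaptor genes 18 were detected, 12 above 0, with none at 2-fold in either direction and a median of 0.20. Over all detected genes 46.6% were above 0, 4.02% were at least 2-fold higher, 2.07% at least 2-fold lower, and the median was -0.04. The highest was TLN2, a second talin, found in radiation-adapted cells alone and at least 1.55-fold higher. The lowest of those detected on both arrays was FERMT2, the kindlin that works with talin on integrins, at -0.69, 1.62-fold lower. PARVB, which binds ILK, was found in wild type cells alone and was at least 1.29-fold lower in radiation-adapted cells. The actin crosslinkers ACTN4 and ACTN1 were at 0.49 and 0.18, and the kinase SRC at 0.37.

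Where a second probe was available, it serves as the only repeat of a ratio, on the same arrays. For 11 of the 26 genes at least 2 probes were detected, and in 9 of the 11 the measured ratios of all detected probes lay on 1 side of 0. The exceptions were L1CAM and NRP1. The 9 include NRCAM, whose probes were detected on the radiation-adapted array alone, and ITGB1, with ratios of 0.00 and -0.04. The same share over all genes was not taken, so the 9 of 11 has no background beside it. The ratios of the 2 brightest probes differed with an SD of 0.590 over these 11 genes and of 0.466 over 2567 genes of the arrays. Of the 6 genes detected on both arrays at 1.5-fold or more, ITGB5 and VCL had such a repeat, and LAMC1, LAMA5, NCAM1 and PXN rested on 1 detected probe each.

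**Figure D4:**
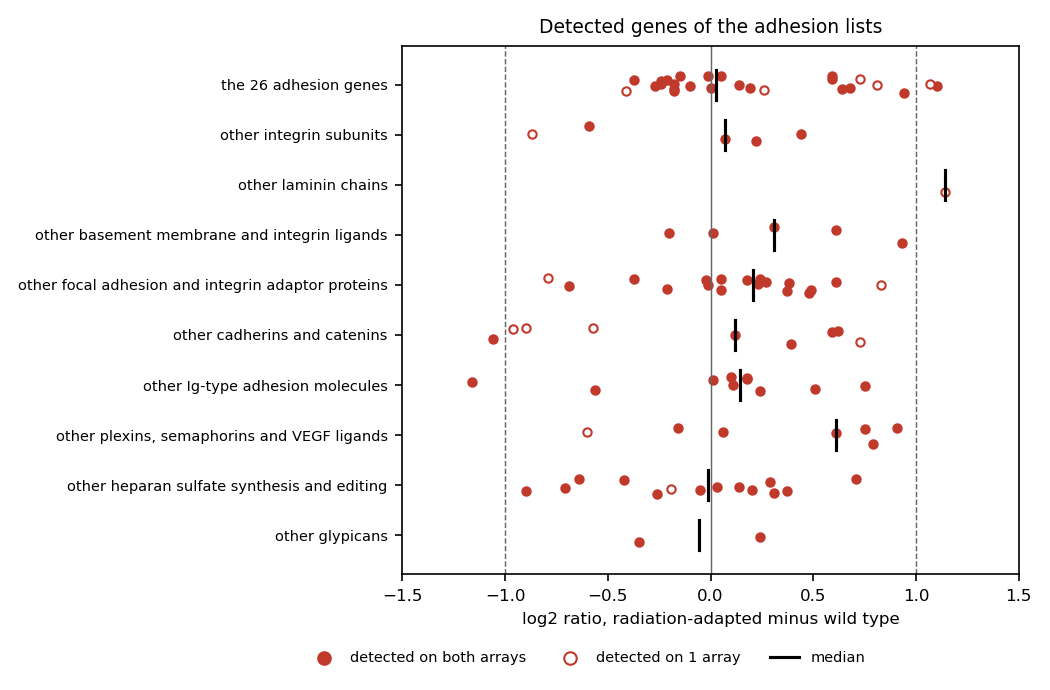
Log2 ratios, radiation-adapted minus wild type, of the 26 adhesion genes and of the detected genes of 9 further adhesion lists; filled points were detected on both arrays, open points on 1, black bars are medians and dashed lines mark 2-fold. The 26 genes have a median of 0.02, and the plexin, semaphorin and VEGF list one of 0.61.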

How the data were processed

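Total RNA of both lines was extracted with Trizol and labelled with an Illumina TotalPrep kit, per the labels' protocols. The authors deposited for each of 47323 probes an average signal intensity, linear and not normalized, and a detection p-value, per the file headers. They also deposited a table of processed intensities whose making is not stated. Its columns have equal medians (10.6) and values below 0, and keep the order of the raw signals; it was used as an alternative only. The number of arrays limits the precision.

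Raw signals were corrected with normexp, given an offset of 16, quantile-normalized and put on the log2 scale (neqc, limma 3.58.1, R 4.3.3); the offset makes folds of dim genes smaller. Later steps used Python 3.11.15, pandas 2.3.3 and NumPy 2.4.6. Probes were named from the platform annotation (30113 with 1 gene symbol, 8 with several, 17202 not named here), with symbols updated through RefSeq of GRCh38.p14. The probe with the highest mean signal stood for a gene. A gene was counted as higher or lower at a measured ratio of 2-fold unless 1.5-fold is stated. Smaller folds are given as measured and are not counted. For a gene detected on 1 array, at least N-fold divides its signal by its own signal on the other array, or by that of the dimmest probe detected there if this is higher; it allows for no measurement error. Promoters are from RefSeq tables. The steps were tested on simulated data.

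The members, gene lists and alternatives were chosen with earlier results of these data known. Both signals are given for members at 2-fold or more, detected on 1 array, or at the ends of their family; from other lists, genes at 2-fold or else those farthest from 0, with further genes named after their values were seen.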

Additional observations from a re-analysis of the deposited data

How the results depend on the processing

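With 1 array per line there was no replicate to leave out, and no paired analysis was possible because each group held 1 array. The count of genes at least 2-fold higher, 2 in the report, was 1 without background correction, with an offset of 50, over genes detected on both arrays, and with bounds used for 1-array genes (chosen after seeing the data); it was 9 at 1.5-fold, and at 1.5-fold it was 2 without background correction, 3 with an offset of 50, 8 under median scaling and 7 with the authors' processed values (also chosen after seeing the data). It was 2 under median scaling, the authors' processed values, no detection filter, a detection threshold of 0.05 and the probe with the lowest detection p-value, and 3 with the median of a gene's detected probes. No gene was at least 2-fold lower under any of these settings, although LIMS1 was at -0.63 with the median of its detected probes. The median log2 ratio, 0.02 in the report, was -0.01 over genes detected on both arrays and between 0.02 and 0.08 under the others. ITGB5 stayed past 2-fold under all 5 normalizations, between 1.04 and 1.10 on the log2 scale, while LAMB2 was at 0.59 with an offset of 50 and 0.39 at its bound. Of the 26 genes, 24 kept the sign of their ratio in all 5 normalizations. Over all detected genes an offset of 50 left 212 at least 2-fold higher and 70 lower, and no background correction 108 and 28. Genes near the detection limit have the least certain ratios.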

Other observations

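Ligands and partners of neuropilins were examined beside NRP1. Of 15 listed plexin, semaphorin and VEGF genes 7 were detected, 5 above 0, with none at 2-fold and a median log2 ratio of 0.61. The list is short. Over all detected genes 46.6% were above 0, 4.02% were at least 2-fold higher, 2.07% at least 2-fold lower, and the median was -0.04. The semaphorin SEMA3C had a log2 signal of 6.49 in radiation-adapted and 5.58 in wild type cells, 1.88-fold higher. The plexin PLXNA3 had 8.88 in radiation-adapted and 8.08 in wild type cells, 1.73-fold higher, and the semaphorin SEMA3F 6.41 in radiation-adapted and 5.66 in wild type cells, 1.68-fold higher. VEGFA was at -0.16 on its brighter probe and at 0.34 on the other. PLXND1, found in wild type cells alone, had a bound of at least 1.01-fold lower in radiation-adapted cells.

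Enzymes that build and edit the heparan sulfate chains of syndecans and glypicans were detected for 14 of 18 genes. Of these 7 were above 0 and 7 below, with a median of -0.01. None reached 2-fold, beside 4.02% of all detected genes higher and 2.07% lower. HS2ST1, a sulfotransferase, had 6.41 in radiation-adapted and 7.30 in wild type cells, 1.86-fold lower, and EXTL3, which starts the chain, had 7.92 in radiation-adapted and 7.21 in wild type cells, 1.63-fold higher. Among junction proteins, CTNNB1, beta-catenin, was 1.5-fold higher on its brighter probe and had a log2 ratio of 0.61 on the other, and JUP, plakoglobin, was at 0.62 and 0.09.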
